A study of Rattus norvegicus with 23 samples.

Results

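The data compared serum of obese Zucker rats (OZ serum) with serum of lean Zucker rats (LZ serum), each added to cultured rat muscle-derived stem cells (MDSC) at 5% for 4 days. There were 3 pairs of small RNA libraries, 1 pair for each stem cell, which made 6 of the 23 libraries of the series. The miRs considered averaged 10 or more reads across the 6 libraries, which held for 293 of the 792 entries listed, while 235 entries had no read in any of the 6. The question was which miRs differed between cells kept in obese and in lean rat serum, whatever the stem cell.

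ZF4-SC were given OZ serum or LZ serum and came from the pelvic floor muscle of 12-week-old female rats of the obese strain, the Zucker fatty rat, which lacks a working leptin receptor. ZL4-SC were given OZ serum or LZ serum and came from the same muscle of age-matched female rats of the non-obese strain. Both female cells were sorted as CD34-positive and Sca1-negative, grown with 10% fetal bovine serum and used at passages 10 to 15. ED-MDSC were given OZ serum or LZ serum and are labelled as cells of male rats in early diabetes. The study describes these rats as obese and 12 weeks old, of the Zucker fatty strain that ZF4-SC also came from. ED-MDSC were selected by another procedure, pre-plating, and as Sca1-positive. The labels call their muscle the quadriceps, while the study names the gastrocnemius. Which male cells these are is in doubt. The study tabulates ratios to untreated ED-MDSC, and the levels these imply follow those of the untreated library labelled non-diabetic. The untreated male libraries were unlike, with miR-10a-5p at 0.57% of the reads in the one labelled early diabetes and at 16.1% in the one labelled non-diabetic. The name ED-MDSC is used below for the libraries labelled early diabetes. The sera for the female cells came from female rats, whose age is given as between 20 and 51 weeks in different places, and those for ED-MDSC from male rats of 32 weeks. Of the female sera, OZ serum was turbid with lipid and LZ serum was clear. Each library is 1 culture of 1 stem cell preparation. The female pairs were sequenced in 1 run and the male pair in another, so sequencing run, sex, serum donors, muscle and the way the cells were isolated cannot be told apart between them. A library of cells without added serum (C) from the same run is given beside each pair as background.

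MicroRNAs are short RNAs that guide Argonaute proteins to messenger RNAs, and pairing of the seed, bases 2 to 8 from the 5′ end, decides most of the targets. MDSC are mesenchymal progenitors, and such cells in culture carry much miR-143 and miR-145, known from smooth muscle cells and fibroblasts, and much miR-21, known from fibrosis and cell survival. Serum also holds miRs of its own, in vesicles and protein complexes, many of them shed by blood cells and the liver.

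The mature sequences of the miRs on which the results turn are given here from RefSeq on the GRCr8 assembly, with the seed in capitals. The table held a sequence for 259 of the 293 miRs tested. The first 4 lay on the OZ side in all 3 stem cells or share a seed or precursor with a miR that did. miR-221-3p and miR-222-3p have the same seed, GCUACAU, and lie close together on chromosome X, while miR-222-5p is the other arm of the miR-222 hairpin.
miR-222-3p: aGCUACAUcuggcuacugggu
miR-221-3p: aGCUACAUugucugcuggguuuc
miR-222-5p: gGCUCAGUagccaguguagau
miR-423-5p: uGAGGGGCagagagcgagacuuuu
The next 6 lay on the LZ side in all 3 stem cells, and no pair of them shares a seed.
miR-30a-5p: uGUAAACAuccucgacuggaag
miR-145-5p: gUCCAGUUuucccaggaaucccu
miR-10b-5p: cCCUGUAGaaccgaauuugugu
miR-342-3p: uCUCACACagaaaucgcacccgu
miR-532-5p: cAUGCCUUgaguguaggacugu
miR-345-5p: uGCUGACCccuaguccagugc
The last 4 took one side in the female cells and the other in the male cells.
miR-143-3p: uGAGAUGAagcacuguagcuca
miR-21-5p: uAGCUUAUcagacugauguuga
miR-125a-5p: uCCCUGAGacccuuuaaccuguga
miR-7a-5p: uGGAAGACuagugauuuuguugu
miR-222 lies on chromosome X from 6022642 on, miR-143 and miR-145 lie together on chromosome 18, and miR-7a-5p is made from 2 loci in the table. miR-362-5p, let-7c-1-3p and miR-486 are named only.

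The 6 libraries held between 2511819 reads (ED-MDSC with OZ serum) and 8218113 reads (ZF4-SC with OZ serum) assigned to miRs. RPM is the number of reads per 1000000 of these, and the OZ/LZ ratio is the ratio of RPM in a pair, with an exact (Clopper-Pearson) 95% interval that covers counting error only. Striated muscle miRs were at or near 0: the 14 entries listed summed to between 1.48 and 10.2 RPM in the 6 libraries, and miR-1-3p and miR-206-3p did not exceed 0.46 and 3.66 RPM. The scaling mattered most in ZF4-SC. TMM factors, which align the bulk of the miRs, moved every log2 OZ/LZ value by 0.71 in ZF4-SC, by −0.12 in ZL4-SC and by −0.20 in ED-MDSC relative to library totals. miR-143-3p alone made up 48.5% of the reads with OZ serum against 27.3% with LZ serum in ZF4-SC, and 44.5% against 34.0% in ZL4-SC, and its part in the shift was not tested. The libraries are of bulk RNA, so a lower share of cells with a miR and less of it per cell cannot be told apart. A direction is called shared below only where it held on both scales.

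Over the 3 pairs, 1 of the 293 miRs tested (0.341%) passed an adjusted p of 0.05 in edgeR's quasi-likelihood test with the stem cell as a block. It was lower with OZ serum, and none (0%) was higher. The miR was p-miR-9, an entry whose prefix p- is not explained in the sources used here. It had 0.80 RPM with OZ serum against 151 RPM with LZ serum in ED-MDSC, 2 reads against 503, and 0.78 RPM in C. The OZ, LZ and C libraries of ZF4-SC and ZL4-SC had no read of it. The log2 OZ/LZ was −7.50 (SE 1.24, adjusted p = 0.00825, edgeR), and it rested on the single ED-MDSC library with LZ serum. DESeq2 called 0 miRs on the same 6 libraries. At an unadjusted p under 0.05 there were 17 miRs (5.8%) in edgeR and 19 (6.48%) in DESeq2. The next smallest adjusted p was that of let-7c-1-3p (0.111, edgeR), which had 0.24, 0 and 1.59 RPM with OZ serum in ZF4-SC, ZL4-SC and ED-MDSC, against 4.43, 0.43 and 10.2 RPM with LZ serum. It was low in every library, with at most 34 reads. An exact test of 1 miR by its signs, which was not run, cannot go below p = 0.25 with 3 pairs. The miRs described next did not pass the edgeR test over the 3 pairs and are given by their values.

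Of the 159 miRs that averaged 100 or more reads, 9 (5.66%) were higher and 13 (8.18%) lower with OZ serum in all 3 stem cells on both scales. On library totals alone the counts were 16 (10.1%) higher and 20 (12.6%) lower. A direction shared by all 3 was not the most frequent pattern, since ED-MDSC stood alone against the female cells for 55 of the 159 miRs (34.6%) on library totals, and the groups below are given as descriptions.

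The higher group was led by both arms of miR-222, which with miR-221 restrains the cell cycle inhibitor p27. miR-222-3p had 27413, 9493 and 2854 RPM with OZ serum in ZF4-SC, ZL4-SC and ED-MDSC, against 19907, 3616 and 1676 RPM with LZ serum, and 11148, 2259 and 1462 RPM in C. In each stem cell the order was OZ serum, LZ serum, C. The OZ/LZ ratio was 1.38 (1.37 to 1.39) in ZF4-SC, 2.63 (2.59 to 2.66) in ZL4-SC and 1.70 (1.64 to 1.76) in ED-MDSC. The log2 OZ/LZ over the pairs was 1.00 (SE 0.33), and it missed the threshold (adjusted p = 0.647, edgeR). miR-222-5p, the far less abundant arm, had 68.6, 33.3 and 50.96 RPM with OZ serum against 54.2, 14.2 and 21.9 RPM with LZ serum. Its OZ/LZ ratios of 1.27, 2.34 and 2.33 were close to those of the main arm in the female cells, and it kept the same order of OZ serum, LZ serum and C in all 3. miR-221-3p, with the same seed as miR-222-3p, had 2584, 1842 and 1760 RPM with OZ serum against 3048, 1401 and 1805 RPM with LZ serum. Its ratios of 0.85, 1.32 and 0.98 had no shared direction. miR-221-5p likewise had ratios of 0.49, 0.87 and 2.47.

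miR-423-5p, a miR found in most tissues and in plasma, had 273, 120 and 827 RPM with OZ serum against 224, 71.9 and 425 RPM with LZ serum, and 203, 60.9 and 182 RPM in C. Again OZ serum was the highest of the 3 conditions in each stem cell. The ratios were 1.22 (1.14 to 1.30), 1.67 (1.50 to 1.87) and 1.95 (1.82 to 2.08), and the log2 OZ/LZ was 0.79 (SE 0.33, adjusted p = 0.736, edgeR). miR-151-3p had ratios of 1.22, 1.70 and 1.29, and let-7b-5p, a member of the differentiation-linked let-7 family, 1.40, 1.39 and 1.18. miR-23a-3p, which lies in a cluster with miR-27a and miR-24, had 1.05, 1.42 and 1.20. The remaining 3 of the 9 were let-7d-3p, miR-129-2-3p and miR-664-3p, with ratios between 1.07 and 1.88, and the ZL4-SC interval of miR-664-3p (0.99 to 1.32) covered 1.

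**Figure D1:**
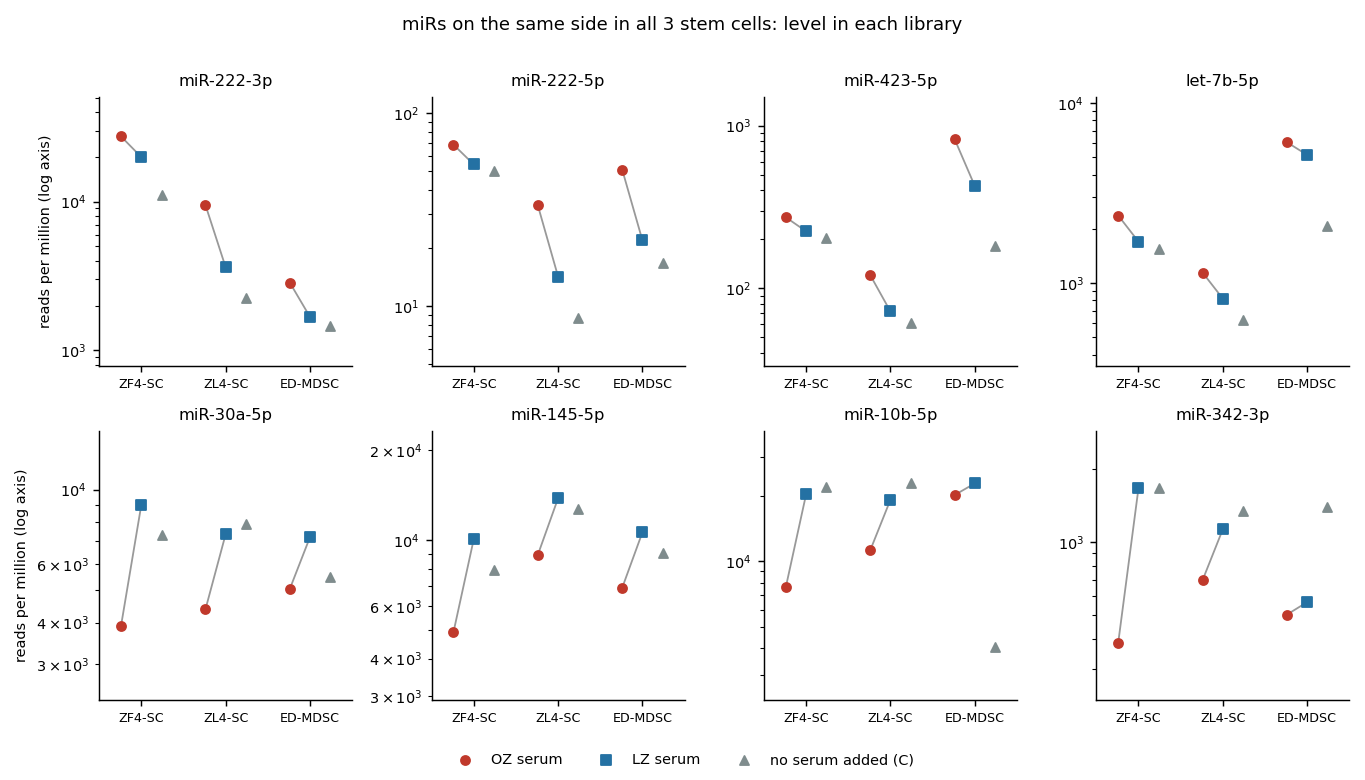
RPM on a log axis in each library of ZF4-SC, ZL4-SC and ED-MDSC for 4 miRs that were higher (top) and 4 that were lower (bottom) with OZ serum (circles) than with LZ serum (squares) in all 3 stem cells. Triangles are the libraries without added serum and lines join the pairs. Each point is 1 library. miR-222-3p stands at 27413 RPM with OZ serum against 19907 RPM with LZ serum in ZF4-SC, and miR-342-3p at 386 RPM against 1675 RPM.

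The lower group ranged from abundant to scarce miRs. miR-30a-5p, of the miR-30 family with the seed GUAAACA, had 3918, 4378 and 5044 RPM with OZ serum in ZF4-SC, ZL4-SC and ED-MDSC, against 9004, 7363 and 7217 RPM with LZ serum, and 7320, 7876 and 5491 RPM in C. The 3 OZ libraries lay below all 6 others. The ratios were 0.44 (0.43 to 0.44), 0.59 (0.59 to 0.60) and 0.70 (0.68 to 0.71), and the log2 OZ/LZ was −0.70 (SE 0.31, adjusted p = 0.749, edgeR). Of its seed partners, miR-30c-5p had ratios of 0.96, 1.12 and 0.79, with no shared direction. miR-30e-5p had 0.40, 0.72 and 1.02, on the LZ side in both female cells like miR-30a-5p. In ED-MDSC it lay on that side only with TMM factors. miR-145-5p, the smooth muscle miR, had 4904, 8910 and 6907 RPM with OZ serum against 10040, 13792 and 10605 RPM with LZ serum, and 7915, 12710 and 9050 RPM in C. OZ serum was the lowest of the 3 conditions in each stem cell. Its ratios were 0.49, 0.65 and 0.65 (log2 OZ/LZ −0.63, SE 0.32, adjusted p = 0.749, edgeR). The other arm of the same hairpin did not share this: miR-145-3p had ratios of 1.48, 1.22 and 0.80.

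miR-10b-5p, encoded in a Hox gene cluster, had 7629, 11239 and 20168 RPM with OZ serum against 20314, 19200 and 22816 RPM with LZ serum, and 22043, 22796 and 4041 RPM in C. In the female cells LZ serum lay near C and OZ serum below both, while in ED-MDSC both sera lay far above C. The ratios were 0.38, 0.59 and 0.88. miR-342-3p, hosted by the Evl gene, had 386, 699 and 504 RPM with OZ serum against 1675, 1134 and 567 RPM with LZ serum, and 1678, 1351 and 1398 RPM in C. Its ratio was 0.23 (0.22 to 0.24) in ZF4-SC, 0.62 (0.60 to 0.64) in ZL4-SC and 0.89 (0.83 to 0.95) in ED-MDSC (log2 OZ/LZ −0.87, SE 0.33, adjusted p = 0.647, edgeR). The gap was thus widest in ZF4-SC and narrowest in ED-MDSC.

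miR-362-5p and miR-532-5p, which lie together in the Clcn5 gene in mouse and human, lay on the same side. miR-362-5p had 67.7, 44.7 and 193 RPM with OZ serum against 284, 82.8 and 244 RPM with LZ serum. miR-532-5p had 19.96, 23.3 and 202 RPM with OZ serum against 64.6, 34.1 and 290 RPM with LZ serum. Their ratios lay between 0.24 and 0.79. Of the 10 entries listed for this cluster 6 were tested, none was called, 5 had a fitted value below 0, and their median log2 OZ/LZ was −0.76, against 0.02 over all 293 miRs. The exception in the fit was miR-500-3p, with ratios of 0.62, 0.95 and 2.30. The single pairs were less uniform. Of the members averaging 10 or more reads in a pair, 3 of 4 in ZL4-SC and 3 of 5 in ED-MDSC were lower, on both scales. In ZF4-SC 5 of 5 were lower on library totals and 4 with TMM factors. miR-345-5p had 14.1, 18.4 and 25.1 RPM with OZ serum against 44.7, 46.9 and 34.5 RPM with LZ serum, ratios of 0.32, 0.39 and 0.73. The remaining 6 of the 13 were miR-99b-3p, miR-152-3p, miR-199a-5p, miR-214-3p, miR-421-3p and the entry p-miR-6. Their ratio was 0.32 to 0.50 in ZF4-SC and 0.71 to 1.00 in ZL4-SC, with almost no gap at the upper end.

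Among miRs of fewer than 100 reads on average, some of the smallest p belonged to values that rested on few reads or 1 pair. miR-217-5p, a pancreas-enriched miR, had 0.12, 0.94 and 2.39 RPM with OZ serum against 22.1, 0.43 and 5.40 RPM with LZ serum, so only ZF4-SC had a wide gap. miR-3559-5p had 1.46, 6.60 and 22.3 RPM with OZ serum against 17.9, 13.2 and 33.0 RPM with LZ serum, lower in all 3 (log2 OZ/LZ −1.46, SE 0.53, adjusted p = 0.647, edgeR). miR-664-2-5p had 20.2, 8.08 and 15.1 RPM with OZ serum against 10.4, 5.40 and 2.998 RPM with LZ serum, higher in all 3 (1.35, SE 0.52, adjusted p = 0.648, edgeR). For miR-184 the gap lay in ZL4-SC, with 16.7 RPM with OZ serum against 1.56 RPM with LZ serum, while ZF4-SC had 17.0 RPM against 12.8 RPM and ED-MDSC 12.7 RPM against 14.99 RPM.

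The pairs differed in how many miRs stood apart and on which side. On library totals, of the miRs averaging 100 or more reads in a pair, 3 of 161 (1.86%) stood 2-fold or more higher with OZ serum in ZF4-SC, and 51 (31.7%) stood 2-fold or more lower. In ZL4-SC 13 of 150 (8.67%) were higher and 7 (4.67%) lower, and in ED-MDSC 14 of 160 (8.75%) were higher and 1 (0.625%) lower. The surplus of lower miRs in ZF4-SC turned over with the scaling, since with TMM factors 25 (15.5%) were higher and 12 (7.45%) lower there. On totals without miR-143-3p 13 (8.07%) were higher and 18 (11.2%) lower in ZF4-SC, a scaling chosen after seeing the data. In ZL4-SC the TMM counts were 12 (8%) higher and 10 (6.67%) lower, and in ED-MDSC 12 (7.5%) higher and 7 (4.38%) lower. With 1 library on each side there is no test within a stem cell. Across the 159 miRs, the log2 OZ/LZ of ZF4-SC and ZL4-SC, whose libraries share a run, had a Spearman rho of 0.42, that of ZF4-SC and ED-MDSC −0.34 and that of ZL4-SC and ED-MDSC −0.17. These are descriptions across miRs, which are not independent replicates. With TMM factors the female cells lay on one side and ED-MDSC on the other for 70 of the 159 miRs (44%).

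**Figure D2:**
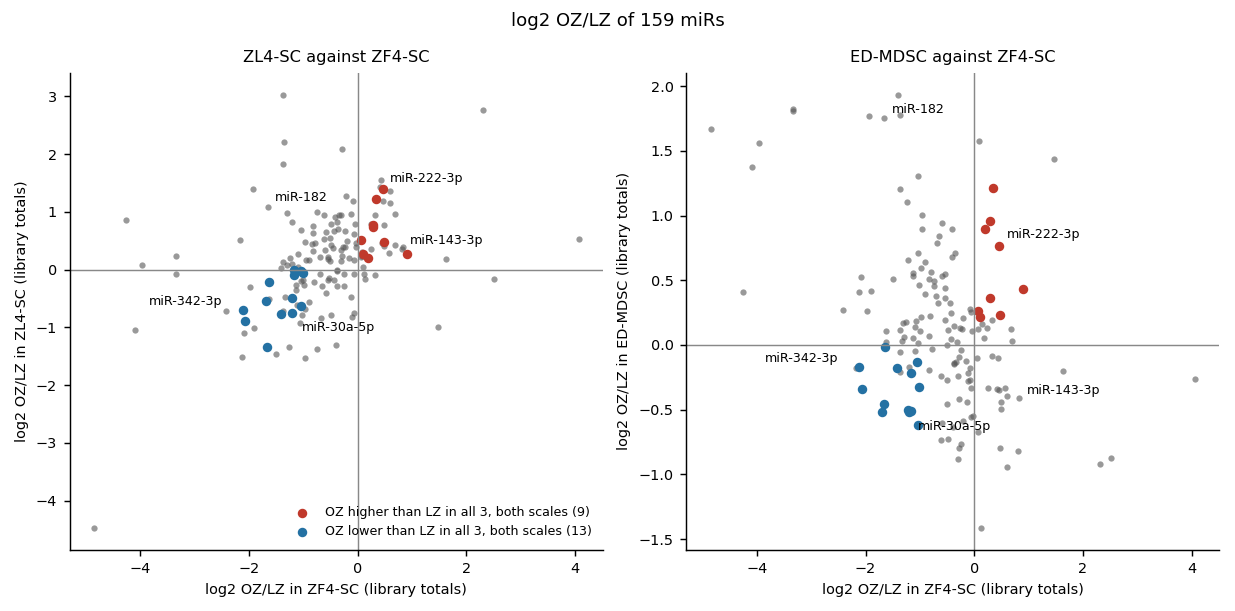
Each point is 1 of 159 miRs, with its log2 OZ/LZ on library totals in ZF4-SC (x axis) against that in ZL4-SC (left) and in ED-MDSC (right). Red and blue points are the 9 miRs higher and the 13 lower with OZ serum in all 3 stem cells on both scales. The cloud leans upward on the left (Spearman rho 0.42) and downward on the right (rho −0.34).

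On the female pairs alone, which are of 1 run, the same test called 9 of 280 miRs (3.21%), 6 higher (2.14%) and 3 lower (1.07%), with 53 miRs (18.9%) at an unadjusted p under 0.05. This fit had only 2 pairs, and so fewer residual degrees of freedom than the fit over the 3 pairs. The sources do not give separate serum donors for the ZF4-SC and ZL4-SC cultures, so the serum may not be replicated between them. p-miR-9, the call of the 3 pairs, had no read in the female pairs. Of the 9, 8 had reads in the ED-MDSC pair, and on library totals 3 of these lay there on the same side and 5 on the other. miR-222-3p (log2 OZ/LZ 1.28, SE 0.35, adjusted p = 0.0106, edgeR, female pairs) and miR-342-3p (−1.05, SE 0.30, adjusted p = 0.0196) were among the 3, with miR-24-3p (1.19, SE 0.33, adjusted p = 0.0147). miR-24-3p had 14610 and 10122 RPM with OZ serum in ZF4-SC and ZL4-SC against 9059 and 5162 RPM with LZ serum, and 23229 RPM against 22745 RPM in ED-MDSC, where TMM factors put it on the LZ side.

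The 5 with the other side in ED-MDSC included abundant miRs. miR-125a-5p, a relative of the worm miRNA lin-4, had 23302 and 14247 RPM with OZ serum in ZF4-SC and ZL4-SC against 17294 and 4857 RPM with LZ serum, and 11813 RPM against 12694 RPM in ED-MDSC. Its ratios were 1.35 (1.34 to 1.36), 2.93 (2.90 to 2.97) and 0.93 (0.92 to 0.94). miR-22-3p had 4483 and 3124 RPM with OZ serum against 3233 and 1366 RPM with LZ serum in the female cells, and 5673 RPM against 9872 RPM in ED-MDSC. miR-7a-5p, best known from neurons and endocrine cells, went the opposite way, with 497 and 1952 RPM with OZ serum against 2117 and 4170 RPM with LZ serum in the female cells, and 1807 RPM against 1255 RPM in ED-MDSC. The others were miR-375-3p, with 44 reads at most in a female library, and the joined entry p-miR-25-1 and p-miR-25-2, at 117 and 27.3 RPM with OZ serum against 23.5 and 3.98 RPM with LZ serum in the female cells, and 7779 RPM against 14740 RPM in ED-MDSC. The remaining call, miR-1247-5p, had no read in the ED-MDSC pair and at most 6.26 RPM in the female ones. Without the ZF4-SC pair 5 of 285 miRs (1.75%) were called, among them miR-182 and miR-486, described below, besides p-miR-9, let-7c-1-3p and miR-3074. Without the ZL4-SC pair the count stayed at 1 of 293 (0.341%).

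miR-143-3p was the most abundant miR of all 6 libraries. It had 485169, 444979 and 212876 RPM with OZ serum in ZF4-SC, ZL4-SC and ED-MDSC against 273322, 340153 and 282524 RPM with LZ serum, and 273509, 310680 and 159015 RPM in C. OZ serum was the highest condition in both female cells and lay between LZ serum and C in the male cells. The ratios were 1.78, 1.31 and 0.75. miR-21-5p took the reverse pattern, with 28918, 43408 and 111213 RPM with OZ serum against 63035, 66276 and 75848 RPM with LZ serum, ratios of 0.46, 0.65 and 1.47. In ZF4-SC and ZL4-SC it was lower with OZ serum than in both other conditions (53505 and 59016 RPM in C), and in ED-MDSC C was the highest at 190290 RPM. miR-99b-5p had ratios of 0.62, 0.95 and 1.30. miR-10a-5p, encoded in another Hox gene cluster than miR-10b-5p, had 87943 and 137179 RPM with OZ serum against 123000 and 237555 RPM with LZ serum in the female cells. In the libraries labelled ED-MDSC, whose identity is in doubt as said above, it stood at 2045 RPM with OZ serum against 1887 RPM with LZ serum.

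**Figure D3:**
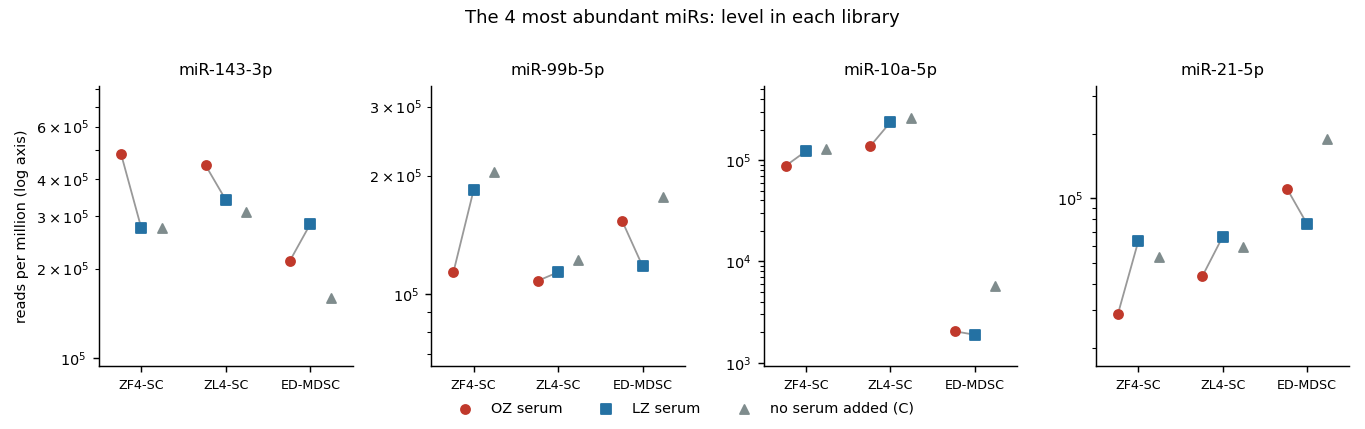
RPM on a log axis of the 4 most abundant miRs in each library (circles OZ serum, squares LZ serum, triangles C, each 1 library, lines join the pairs). miR-143-3p was higher with OZ serum in ZF4-SC and ZL4-SC and lower in ED-MDSC (212876 against 282524 RPM), and miR-21-5p the reverse.

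Some clusters lay as a block on one side in ZF4-SC and on the other in ED-MDSC. The Dlk1-Dio3 cluster is a large imprinted group of miRs expressed from the maternal chromosome. Of its 77 entries listed, 10 were tested and none was called. All 9 members that averaged 10 or more reads in the ZF4-SC pair were lower with OZ serum on library totals, 8 of them also with TMM factors. Their median log2 OZ/LZ was −3.27 on library totals and −2.56 with TMM factors, against −0.70 and 0.01 over all such entries. In ZL4-SC all 8 such members were higher on library totals (median 0.26, against 0.19 over all entries), 5 of them also with TMM factors. In ED-MDSC all 10 were higher on library totals (median 1.42, against 0.12 over all entries), 9 of them also with TMM factors. miR-541-5p had 5.60, 44.3 and 11.9 RPM with OZ serum against 108, 24.5 and 8.99 RPM with LZ serum. miR-409a-5p had 3.77, 26.0 and 49.0 RPM with OZ serum against 59.5, 24.5 and 16.5 RPM with LZ serum, and 78.6, 27.7 and 20.8 RPM in C. In ZF4-SC the low library was that with OZ serum, while LZ serum and C lay near each other.

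The miR-183 cluster, known from sensory cells, was split the same way. miR-182 had 625, 1608 and 2380 RPM with OZ serum in ZF4-SC, ZL4-SC and ED-MDSC against 1968, 758 and 708 RPM with LZ serum, and 872, 718 and 446 RPM in C. Its ratios were 0.32 (0.31 to 0.33), 2.12 (2.06 to 2.19) and 3.36 (3.21 to 3.53). miR-96-5p, of the same cluster, had ratios of 0.26, 2.63 and 3.41. Without the ZF4-SC pair miR-182 was called (log2 OZ/LZ 1.26, SE 0.37, adjusted p = 0.0478, edgeR), against 0.55 (SE 0.43) over the 3 pairs. The pair left out was the one on the other side, so that call came from pairs that already agreed.

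Whether OZ against LZ serum acted differently in ZF4-SC and ZL4-SC was tested on the 14 female libraries, in which 2 duplicated conditions gave the spread. One of them, ZF4-SC without addition, has its duplicates in different sequencing runs, so that spread holds a run difference. The difference passed an adjusted p of 0.05 for 0 of 261 miRs (0%) in edgeR, and 1 (0.383%) had an unadjusted p under 0.05. The miR was miR-9a-5p, known from neurons, with 9.98 RPM with OZ serum against 1.68 RPM with LZ serum in ZF4-SC and 132 RPM against 147 RPM in ZL4-SC. Its difference of 3.70 (SE 1.34) had an adjusted p of 0.991 (edgeR). miR-182 had a difference of −1.73 (SE 0.88) and miR-379-5p, of the Dlk1-Dio3 cluster, one of −3.80 (SE 1.70), with the same adjusted p. The median SE of the difference was 1.37 on the log2 scale, and 1.04 with these duplicates taken as separate conditions, again with 0 calls, so the absence of calls does not show that the cells responded alike.

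The other families, taken from lists, are given by their medians beside that of all miRs (0.02). No list had a member called. All 4 arms of miR-221 and miR-222 had a fitted value above 0 (median log2 OZ/LZ 0.59). On library totals their median in ZF4-SC was 0.05, with 2 arms above 0 and 2 below. All 6 arms of the miR-148 and miR-152 family, whose main arms share the seed CAGUGCA and which represses the DNA methyltransferase Dnmt1, had one below 0 (median −0.45). Their medians in the single pairs on the TMM scale were −0.68, −0.32 and −0.34 in ZF4-SC, ZL4-SC and ED-MDSC. The 5 tested members of the cell-cycle miR-15 and miR-16 family also lay below 0 (median −0.49), but in the ED-MDSC pair the median was 0.12 on the TMM scale. The let-7 and miR-98 family had 12 of 14 members above 0 (median 0.23, and −0.04 without the ZF4-SC pair). Its medians on the TMM scale were 0.74, 0.31 and −0.42 in ZF4-SC, ZL4-SC and ED-MDSC, and on library totals that of ZF4-SC was 0.04, with 8 members above 0 and 7 below. The proliferation-linked miR-17/92 and miR-106b/25 clusters had 16 of 18 members higher with OZ serum in ED-MDSC on library totals and 13 with TMM factors. In ZF4-SC they had 2 of 14 and 5 of 14. Of all entries averaging 10 or more reads in the pair, 169 and 127 of 287 were higher in ED-MDSC. In ZF4-SC 62 and 146 of 286 were. The 12 miRs that the study lists as related to myostatin, an inhibitor of muscle growth, were chosen there with male cells of this kind in view. Of these, 6 had a fitted value above 0 and 6 below (median −0.07), and on library totals 10 of 12 were lower with OZ serum in ZF4-SC, 6 of 12 in ZL4-SC and 5 of 12 in ED-MDSC. With TMM factors 7 of 12 were lower in ZF4-SC, 6 in ZL4-SC and 9 in ED-MDSC. Among all entries averaging 10 or more reads in a pair, 224 of 286, 104 of 269 and 118 of 287 were lower on library totals. With TMM factors these counts were 140, 121 and 160. In the study's 20 other miRs, 12 had a fitted value below 0 (median −0.03).

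Members of the inflammation-linked miR-146 family, induced by NF-kB, had no shared direction. miR-146b-5p had 1345, 2952 and 2711 RPM with OZ serum in ZF4-SC, ZL4-SC and ED-MDSC against 3314, 1489 and 2596 RPM with LZ serum, and 4371, 2079 and 36579 RPM in C. The sera were thus close to each other in ED-MDSC and both far below C, while in ZL4-SC they lay on opposite sides of C and in ZF4-SC both below it. miR-181a-5p, the most abundant guide of its family, had ratios of 0.60, 1.997 and 1.37, and the myogenic miR-26a-5p 0.92, 1.95 and 0.74. miR-34c-5p, a p53 target, had 395, 1487 and 2234 RPM with OZ serum against 1019, 1354 and 2579 RPM with LZ serum. miR-29a-3p, a repressor of collagens, had 219, 404 and 976 RPM with OZ serum against 448, 252 and 969 RPM with LZ serum. For these miRs ZF4-SC lay on the LZ side and ZL4-SC on the OZ side on library totals, and also with TMM factors except for miR-26a-5p in ZF4-SC. miR-103-3p, linked to insulin signaling, had 186, 232 and 750 RPM with OZ serum against 365, 371 and 648 RPM with LZ serum, which put both female cells on the LZ side.

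**Figure D4:**
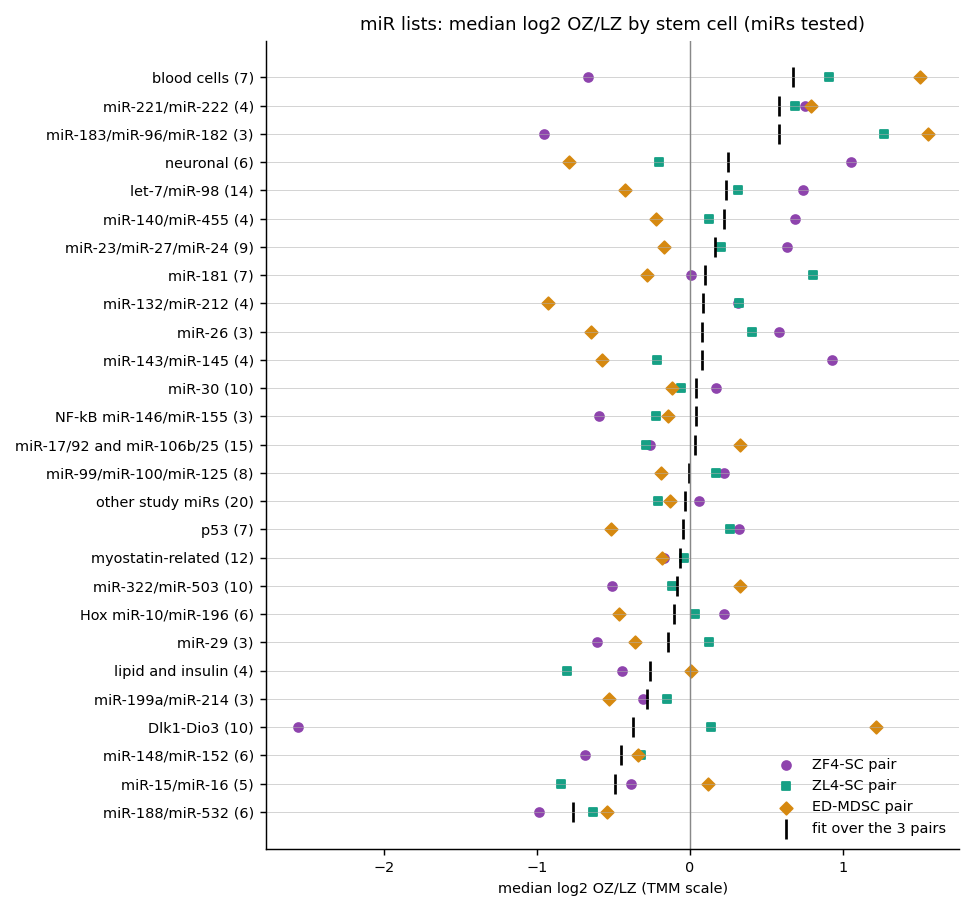
Median log2 OZ/LZ on the TMM scale of each list with at least 3 miRs tested (number in brackets), for the ZF4-SC pair (circles), the ZL4-SC pair (squares) and the ED-MDSC pair (diamonds). The black bar is the median of the fitted values over the 3 pairs. On this scale the median of miR-221 and miR-222 lies to the right in all 3 pairs and that of the miR-148 and miR-152 family to the left. The Dlk1-Dio3 cluster ranges from −2.56 to 1.22.

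Blood-cell miRs differed widely between the conditions of ED-MDSC. The red-cell miR-451-5p had 8.15, 4.71 and 3882 RPM with OZ serum in ZF4-SC, ZL4-SC and ED-MDSC against 83.0, 3.98 and 1111 RPM with LZ serum, and 8.16, 5.71 and 158 RPM in C. miR-486, also of red cells and muscle, had 48.3, 47.5 and 5144 RPM with OZ serum against 125, 13.4 and 2226 RPM with LZ serum. miR-142-5p, of white cells, had 0.97, 2.83 and 467 RPM with OZ serum against 2.60, 0.28 and 136 RPM with LZ serum. In ED-MDSC both sera lay above C and OZ serum above LZ serum for each of these, whereas in ZF4-SC the LZ library was the higher one. The whole list of 11 entries summed to 61.1, 58.0 and 9964 RPM with OZ serum, against 225, 20.1 and 3623 RPM with LZ serum, and 62.8, 22.7 and 486 RPM in C. Of its members averaging 10 or more reads in a pair, 0 of 5 in ZF4-SC, 4 of 4 in ZL4-SC and 7 of 7 in ED-MDSC were higher with OZ serum, on both scales. Of all such entries, 62 of 286, 165 of 269 and 169 of 287 were higher on library totals. With TMM factors 146, 148 and 127 were. The liver miR-122-5p had 0.97, 1.35 and 27.9 RPM with OZ serum against 1.53, 0.28 and 13.5 RPM with LZ serum, and 0.52 RPM in ED-MDSC without serum. miR-486 was called without the ZF4-SC pair (log2 OZ/LZ 1.35, SE 0.38, adjusted p = 0.0317, edgeR), which was again the pair on the other side. miR-223-3p, of myeloid cells, had 17.9 RPM with OZ serum against 5.40 RPM with LZ serum in ED-MDSC. The part of miRs carried in with the added serum in these and other ED-MDSC values was not tested. The epithelial list stayed between 2.27 and 9.55 RPM in the 6 libraries.

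**Figure D5:**
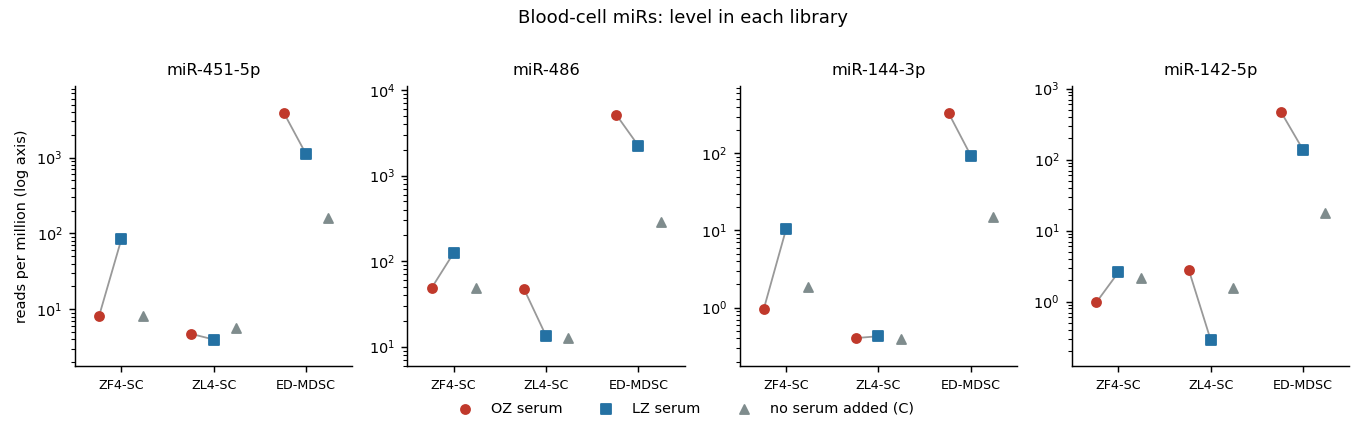
RPM on a log axis of 4 blood-cell miRs in each library (circles OZ serum, squares LZ serum, triangles C, each 1 library, lines join the pairs). In ED-MDSC the order was OZ serum, LZ serum, C for all 4, and in ZF4-SC the LZ library stood above the OZ library for all 4.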

How the data were processed

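Small RNA libraries were sequenced by a service laboratory, which assigned reads to the miRs of miRBase release 18. The deposited tables hold raw counts of reads per miR, 1 library a column, not normalized by the authors. The aligner and the handling of reads that fit several miRs are not given in the sources used here. No sample column was left unused for want of a label.

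Counts of the 6 libraries were fitted in edgeR 4.0.16 (quasi-likelihood, TMM factors, Benjamini-Hochberg over 293 miRs) with the stem cell as a block, which left 2 residual degrees of freedom. Log2 ratios of a pair used a pseudocount of 0.5 reads. Ratios in a stem cell used library totals. Alternatives were library totals, RLE factors, DESeq2 1.42.0, legacy quasi-likelihood, other read minimums, no block, and each pair left out. The fits with a pair left out had 2 pairs and fewer residual degrees of freedom. Labels give no separate cultures within a condition of the pairs, so p-values of OZ against LZ serum measure the spread between pairs. Those of the difference between ZF4-SC and ZL4-SC use the spread within 2 duplicated ZF4-SC conditions. That spread is assumed to hold for the single libraries.

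The miRs named were those called, the 12 smallest p of each direction, the 12 largest median ratios of each direction among miRs on the same side in all 3 stem cells, the 12 most abundant, members of 35 lists and of 2 lists of the study, and the 6 smallest p of each direction of the interaction. The miRs called on the female pairs alone or without the ZF4-SC pair and those of the shared direction on both scales were also named, chosen after their values were seen. Members and lists were chosen with earlier results of these data known.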

Additional observations from a re-analysis of the deposited data

Results flagged for a closer look

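In 3 of the miRs that are most abundant or related to myostatin, the female pairs lay on one side and the ED-MDSC pair on the other, on library totals and with TMM factors. The mean log2 OZ/LZ of the ZF4-SC and ZL4-SC pairs minus that of the ED-MDSC pair was 1.02 for miR-143-3p, −1.42 for miR-21-5p and 1.10 for miR-125a-5p. These differences were not tested, since sex, run, muscle, isolation and serum donors change together and ED-MDSC have 1 pair.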

How the results depend on the processing

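The count of miRs called over the 3 pairs was 1. It was 2 with library totals (let-7c-1-3p was added), and 0 with DESeq2, with a mean of at least 100 reads, without a filter, without the stem cell block, and without entries of the prefix p- or of joined names, an alternative chosen after seeing the data. The smallest adjusted p of the 5 settings with 0 calls was between 0.0611 (edgeR, no filter) and 0.993 (edgeR, no block). Leaving out each pair gave 1 to 9 calls. A set of 39 miRs was followed across the settings, most of them picked from these same libraries by small p or a shared direction. All tested ones kept their direction with library totals, RLE factors, DESeq2, legacy quasi-likelihood and the other minimums. Refits of the same counts make such agreement likely, so it is no separate support. The exceptions under other settings were the joined entry p-miR-25-1 and p-miR-25-2 without the block (−1.05, against 1.53) and miR-143-3p without the ZF4-SC pair (leaving out each pair gave −0.16 to 0.96, against 0.39). The number of miRs at least 2-fold apart depended on the minimum: in ZF4-SC it was 54, and 120 with at least 10 reads, 21 with at least 1000 and 31 on totals without miR-143-3p, which was chosen after seeing the data. In ZL4-SC it was 20, and 48, 5 and 36 with these. In ED-MDSC it was 15, and 55 and 5 with the other minimums. The difference between ZF4-SC and ZL4-SC had 0 calls under each of its alternatives. No replicate numbers pair libraries beyond the stem cell. Depth limits the rare miRs: 3 reads are 0.365 RPM in the deepest library and 1.19 RPM in the shallowest.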
